A study of Mus musculus with 6 samples.

Results

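The genes described here encode respiratory complex III, cytochrome c, 6 subunits of complex IV and the ATP synthase (complex V) of the mouse. They were taken from a table of 27179 genes as all symbols that start with Uqcr or Atp5, together with Cyc1, Cycs, Cox5a, Cox5b, Cox6b1, Cox6c, Cox7b and Cox7c, and 2 symbols that name pseudogenes were dropped. This left 33 genes: 9 of complex III (Cyc1 included), cytochrome c itself, 6 of complex IV and 17 of complex V. RNA was measured in C2C12 cells, a mouse myoblast line that fuses into multinucleate myotubes in culture. For the 3 myoblast libraries, cells grew at sub-confluent density with 10% fetal bovine serum. For the 3 myotube libraries, cells first spent 3 days at 100% confluence and a further 5 days with 2% horse serum and an added mix of insulin, transferrin, selenium and ethanolamine. High glucose DMEM and 4 mM L-glutamine were common to both groups. Serum, supplement, cell density and differentiation therefore changed together and cannot be told apart, and all cells belong to 1 line. The samples were harvested in triplicate and no separate cultures are named, so the p-values speak only of sample-to-sample spread, part or all of which may be technical.

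Complex III takes electrons from ubiquinol and passes them through its iron-sulfur protein and cytochrome c1 to cytochrome c, a small soluble carrier, while it pumps protons. Complex IV, cytochrome c oxidase, hands the electrons on to oxygen, and its catalytic subunits come from the mitochondrial genome while a shell of small subunits comes from nuclear genes. The ATP synthase lets protons flow back through a ring of c subunits in the membrane, which turns a central stalk inside the catalytic head, while a peripheral stalk holds the head still. Skeletal muscle fibres rely on these complexes for sustained work, and each complex needs products of both genomes.

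The libraries held 10076945 to 11723881 counts in myoblasts and 7370169 to 8339589 in myotubes, and 12800 genes passed the filter on low counts. All 8 myotube markers rose, with a summed level of 419 to 440 CPM (read counts divided by library size after TMM scaling, which sets the typical gene equal between libraries) in myoblasts and 15915 to 16958 CPM in myotubes. Of 5 myoblast markers, Des rose, Myod1, Myf5 and Cdh15 fell and Pax7 did not pass. All 5 proliferation markers fell, from a sum of 1779 to 1785 CPM to 137 to 146 CPM. The summed level of 5 fibroblast markers was 333 to 347 CPM in myoblasts and 1623 to 1917 CPM in myotubes: Dcn and Col1a1 rose, Pdgfra fell, Lum was under the filter and Tcf21 was at 0. Their part in the results below was not tested. The 5 adipocyte markers summed to at most 0.428 CPM, the 4 endothelial markers to at most 1.71 CPM, the 4 leukocyte markers to at most 4.42 CPM and the 4 osteoblast markers to at most 12.5 CPM in any library.

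Messenger RNA of most of these subunits was higher in myotubes. Of the 32 genes tested (edgeR's quasi-likelihood test, Benjamini-Hochberg adjusted over all genes tested, threshold 0.05), 28 rose, 0 fell and 4 did not pass: the complex III core protein Uqcrc1, cytochrome c (Cycs), the catalytic beta subunit Atp5b and the subunit c gene Atp5g2. At an unadjusted p under 0.05, and by DESeq2 and limma-voom, 0 of them fell as well; DESeq2 called 27 higher, without Atp5a1. Among all genes tested, 79.5% were called in either direction, 40.2% as higher and 39.2% as lower. The median log2 change was 0.79 over the 32 genes, with a range from -0.09 to 1.45, and 0.02 over all genes tested. The changes were mostly under 2-fold: only Uqcrq passed a test for a change of more than 2-fold (edgeR's glmTreat, adjusted p under 0.05), against 21.6% of all genes. In 28 of the 32 genes the 3 myoblast and 3 myotube values did not overlap, against 80.5% of all genes. These are not the same 28 that rose: they include Atp5b, whose myotube values were all lower, and leave out Atp5a1. In these bulk samples, fewer cells of a type and less RNA per cell cannot be told apart.

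By complex, the median log2 change was 0.93 in complex III, where 7 of 8 tested genes rose, 0.86 in the complex IV subunits, where 6 of 6 rose, and 0.76 in complex V, where 15 of 17 rose. The spread inside each complex was larger than the gap between these medians. With the log2(CPM + 1) values of the tested genes summarised as 1 median per library, complex III went from 6.86 ± 0.05 (SD, n = 3) to 7.52 ± 0.01. The complex IV subunits went from 6.78 ± 0.06 to 7.48 ± 0.01 and complex V from 6.74 ± 0.02 to 7.28 ± 0.04. The 33 genes took up 0.594% ± 0.0024 of all counts in myoblasts and 0.703% ± 0.0135 in myotubes. Without Atp5a1 and Atp5b, the catalytic head genes, that share went from 0.309% ± 0.0018 to 0.448% ± 0.0091.

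**Figure D1:**
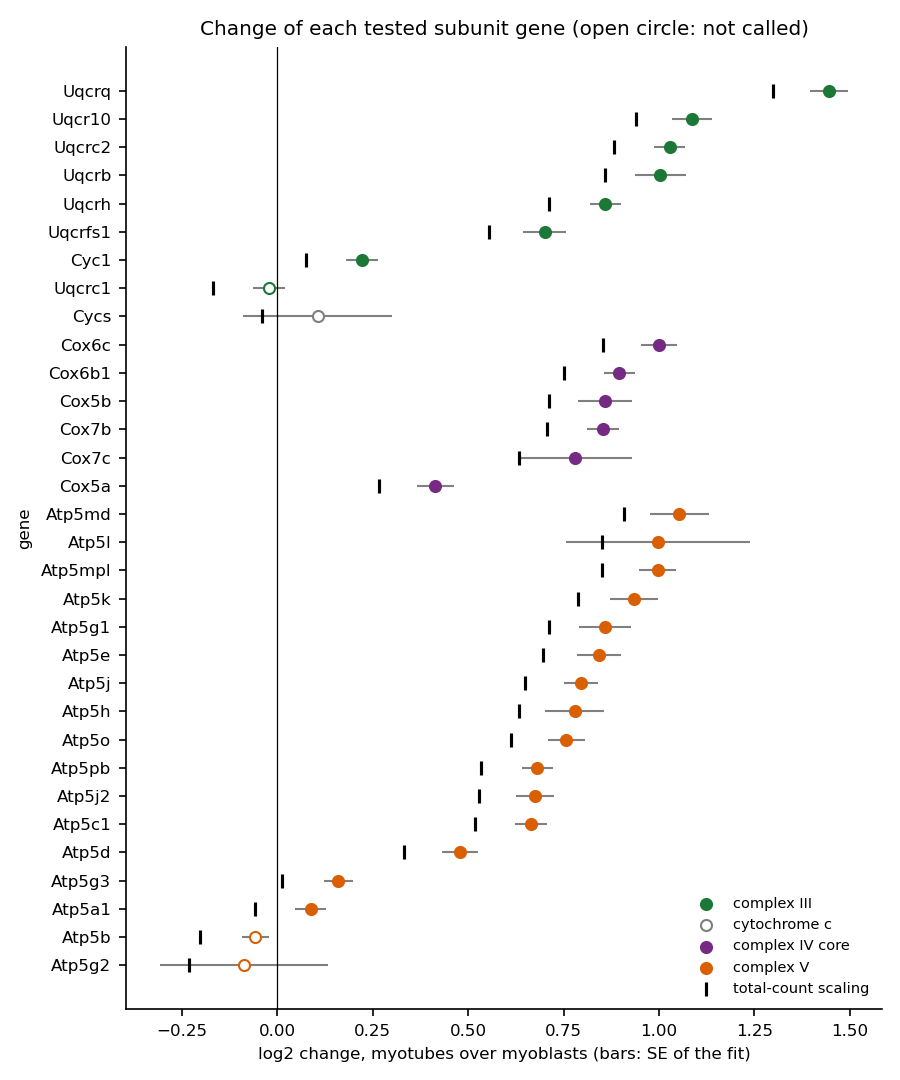
Log2 change in myotubes over myoblasts for each of the 32 tested genes, with bars for the standard error of the fit, coloured by complex, open circles for genes not called, and a vertical tick for the change when libraries were scaled by total counts. Most genes lie between 0.41 and 1.09, while Uqcrc1, Cycs, Cyc1, Atp5g3, Atp5a1, Atp5b and Atp5g2 lie near 0 and Uqcrq reaches 1.45.

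Of the 2 core proteins of complex III, large matrix-facing subunits related to mitochondrial processing peptidases, Uqcrc2 rose and Uqcrc1 did not pass the test. Uqcrc1 (gene ID 22273, chr9:108936648-108949641) was at 169, 176 and 169 CPM in the myoblast libraries and at 171, 172 and 163 CPM in the myotube libraries. The groups overlap, and its log2 change was -0.02 (SE 0.04, edgeR adjusted p = 0.646). Uqcrc2 (gene ID 67003, chr7:120635189-120659523) was at 136, 138 and 134 CPM in myoblasts and at 286, 277 and 269.7 CPM in myotubes. Every myotube library lay far above every myoblast library, and Uqcrc2 rose by 1.03 on the log2 scale (SE 0.04, edgeR adjusted p = 1.13e-17). The log2 ratio of Uqcrc2 over Uqcrc1, in which the scaling of libraries cancels, was -0.34 ± 0.02 (SD, n = 3) in myoblasts and 0.71 ± 0.03 in myotubes. This ratio was chosen after the values were seen and is a description. An annotated transcript of Pdzd9 lies antisense to 26.6% of the exon bases of Uqcrc2, and none overlaps Uqcrc1.

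Both nuclear-encoded redox subunits of complex III rose. Uqcrfs1, the Rieske iron-sulfur protein, was at 98.6, 90.5 and 106 CPM in myoblasts and at 171, 159 and 149 CPM in myotubes. Its groups did not overlap, and it rose by 0.70 (SE 0.06, edgeR adjusted p = 2.22e-11). Cyc1, cytochrome c1, which passes the electrons to cytochrome c, was at 180.4, 188 and 179 CPM in myoblasts and at 222, 214 and 204 CPM in myotubes. Its groups did not overlap either, and the rise was 0.22 (SE 0.04, edgeR adjusted p = 4.82e-05); with libraries scaled by total counts it was 0.08 and not called (adjusted p = 0.109). For Uqcrfs1 over Cyc1, also chosen after the values were seen, the log2 ratio was -0.90 ± 0.15 in myoblasts and -0.42 ± 0.04 in myotubes.

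The small supernumerary subunits of complex III, which surround the core and carry no redox centre, rose together where they could be tested. Uqcrq, subunit 8, was at 70.7, 75.0 and 72.9 CPM in myoblasts and at 189.9, 195 and 209.9 CPM in myotubes. The groups were well apart, and with a rise of 1.45 (SE 0.05, edgeR adjusted p = 3.22e-19; adjusted p = 1.83e-09 for more than 2-fold) it had the highest log2 change of the 32. Uqcr10 went from 56.3 ± 2.26 to 119.7 ± 4.49 CPM (log2 change 1.09), Uqcrb from 31.4 ± 1.19 to 63.1 ± 3.23 CPM (1.004) and the hinge protein Uqcrh, which sits at the cytochrome c side, from 152 ± 4.94 to 276 ± 4.46 CPM (0.86). All 3 passed the test, with no overlap between groups. Uqcr11, subunit 10, had 1 count in a single myoblast library and 0 counts in the other 5, and was not tested.

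Cytochrome c itself did not pass the test. Cycs (gene ID 13063, chr6:50562563-50566569), the somatic form, was at 4.40, 3.74 and 5.18 CPM in myoblasts and at 4.85, 4.06 and 5.30 CPM in myotubes. The groups overlap throughout, and the log2 change was 0.11 (SE 0.20, edgeR adjusted p = 0.628), a wide error beside the 0.04 of Cyc1. The log2 ratio of Cycs over Cyc1 was -5.37 ± 0.27 in myoblasts and -5.50 ± 0.23 in myotubes, a difference of -0.13 (exact two-sided permutation p = 0.6, adjusted over 4 ratios 0.6; 3 libraries against 3 cannot give less than 0.1). It changed sign, to 0.01, without the third myoblast library. All coding windows of Cycs have exact copies elsewhere in the genome, as described further on.

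All 6 complex IV subunits of this set, each from a nuclear gene, rose. Nuclear subunits that come in tissue forms lie outside the set and are given further on. Cox5a, a subunit on the matrix side, rose least: it was at 119, 108 and 113 CPM in myoblasts and at 146, 154 and 152 CPM in myotubes. Its groups did not overlap and the log2 change was 0.41 (SE 0.05, edgeR adjusted p = 1.79e-08); an annotated transcript runs antisense to 41.7% of its exon bases. Cox5b, which binds zinc, was at 40.2, 43.0 and 35.2 CPM in myoblasts and at 77.1, 71.1 and 67.7 CPM in myotubes, a rise of 0.86 (SE 0.07, edgeR adjusted p = 3.11e-11) with no overlap. Cox6c, a small membrane subunit, rose most: it was at 104, 98.6 and 111 CPM in myoblasts and at 214, 202 and 209 CPM in myotubes. Its log2 change was 0.999 (SE 0.05, edgeR adjusted p = 4.28e-16), again with no overlap.

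The remaining 3 lay between these. Cox6b1, which faces the intermembrane space, went from 136 ± 3.59 to 254 ± 3.58 CPM (log2 change 0.90) and Cox7b from 129 ± 1.74 to 234 ± 9.20 CPM (0.85). Cox7c went from 5.56 ± 0.193 to 9.51 ± 1.07 CPM, a rise of 0.78 with a larger standard error of 0.15 (edgeR adjusted p = 4.02e-05). None of the 6 passed the test for more than 2-fold.

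**Figure D2:**
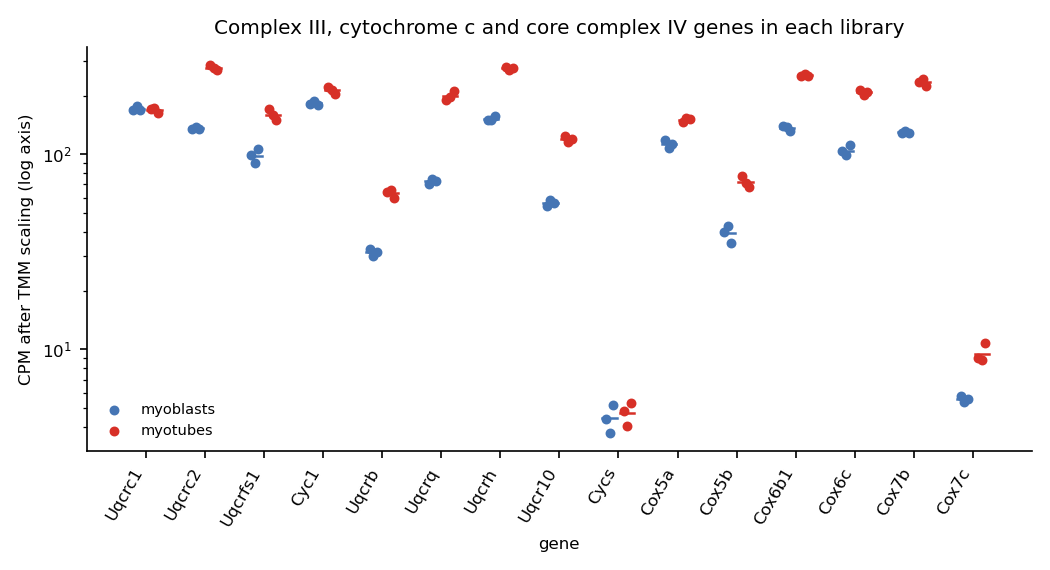
CPM after TMM scaling (log axis) in each library for the tested genes of complex III, cytochrome c and complex IV, with myoblasts in blue, myotubes in red and a line at each group mean. The red points lie above the blue points for every gene except Uqcrc1 and Cycs, whose groups overlap.

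In the ATP synthase, the log2 changes of the 2 catalytic head genes were close to 0. The head is built from alternating alpha (Atp5a1) and beta (Atp5b) subunits, and ATP is made on beta. Atp5b (gene ID 11947, chr10:128083307-128090388) was at 1948, 1947 and 1884 CPM in myoblasts and at 1854, 1829.8 and 1873 CPM in myotubes. The myotube values were all slightly lower, the log2 change was -0.06 (SE 0.04) and it did not pass the test (edgeR adjusted p = 0.142). Atp5a1 was at 778, 794 and 778 CPM in myoblasts and at 880.4, 832 and 787 CPM in myotubes, where the lowest myotube library lay below the highest myoblast library. Its rise of 0.09 (SE 0.04, edgeR adjusted p = 0.0480) passed narrowly. The call was lost without any single library except the third of the myotubes, and with total counts the change was -0.06 (adjusted p = 0.182). It was also lost by DESeq2 (adjusted p = 0.0534), with no filter (0.359) and without the mitochondrially encoded genes (0.0509).

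All 3 central stalk genes rose. Atp5c1, gamma, the shaft that turns inside the head, was at 219, 218 and 219.6 CPM in myoblasts and at 365, 336 and 339 CPM in myotubes. The groups were well apart and it rose by 0.66 (SE 0.04, edgeR adjusted p = 8.82e-14). Atp5d, delta, went from 111 ± 4.76 to 154 ± 4.79 CPM (log2 change 0.48) and Atp5e, epsilon, from 73.3 ± 2.06 to 131.6 ± 11.6 CPM (0.84). Against the beta subunit, the log2 ratio of Atp5c1 over Atp5b was -3.14 ± 0.03 in myoblasts and -2.42 ± 0.06 in myotubes, while that of Atp5a1 over Atp5b was -1.30 ± 0.02 and -1.15 ± 0.09. Both ratios were chosen after the values were seen. The counts of Atp5a1 and Atp5b together made up 64.3% ± 0.483 of complex V counts in myoblasts and 53.7% ± 0.309 in myotubes; such shares weight long transcripts more.

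The c ring is encoded by 3 genes whose mature proteins are the same and whose import signals differ. Of these, Atp5g1 and Atp5g3 rose and Atp5g2 did not pass the test. Atp5g1 (Atp5mc1 in newer naming; gene ID 11951) was at 26.5, 28.4 and 27.98 CPM in myoblasts and at 49.9, 50.4 and 50.1 CPM in myotubes. It rose by 0.86 (SE 0.07, edgeR adjusted p = 1.55e-11), with no overlap. The coefficient of variation was 3.56% in myoblasts and 0.400% in myotubes, at myotube counts of only 350, 372 and 397. So small a spread over 3 libraries is not a measure of precision. Atp5g3 (Atp5mc3; gene ID 228033) was at 357, 358 and 350.3 CPM in myoblasts and at 399, 385 and 407 CPM in myotubes. The groups did not overlap and the rise was 0.16 (SE 0.04, edgeR adjusted p = 4.84e-04), but with total counts it was 0.01 and not called (adjusted p = 0.748). Atp5g2 (Atp5mc2; gene ID 67942) was at 4.04, 4.15 and 3.01 CPM in myoblasts and at 2.997, 3.25 and 4.29 CPM in myotubes. Its groups overlap, and the log2 change was -0.09 (SE 0.22, edgeR adjusted p = 0.727).

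Levels between genes were compared per kilobase of the GENCODE transcript that lies inside the RefSeq gene: 774, 647 and 723 bases for Atp5g1, Atp5g2 and Atp5g3. For Atp5g1 the whole GENCODE transcript has 4715 bases and runs 3941 bases beyond the RefSeq gene, so its level per kilobase depends on the annotation. On this scale, the levels of Atp5g1, Atp5g2 and Atp5g3 were 35.7, 5.77 and 491 CPM per kb in myoblasts and 64.8, 5.43 and 549 CPM per kb in myotubes. Atp5g3 was the highest of the 3 in both groups. The log2 ratio of Atp5g1 over Atp5g3 was -3.75, -3.66 and -3.65 in myoblasts and -2.997, -2.93 and -3.02 in myotubes. These groups did not overlap, and the difference of 0.70 gave the smallest p that this design allows (exact two-sided permutation p = 0.1, adjusted over 4 ratios 0.2). For Atp5g2 over Atp5g3 the log2 ratio went from -6.59 ± 0.24 to -6.84 ± 0.25, a difference of -0.25 (exact permutation p = 0.2, adjusted 0.267). Counts of Atp5g1 and Atp5g2 are uncertain, since 99.7% and 100% of their coding windows have exact copies in other genes or pseudogenes, while Atp5g3 has none.

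The peripheral stalk changed as a narrow group: all 4 genes rose, by 0.68 to 0.79. Atp5pb, subunit b, went from 196 ± 4.31 to 315 ± 11.8 CPM, Atp5h, subunit d, from 29.7 ± 1.31 to 51.1 ± 5.73 CPM, Atp5j, coupling factor F6, from 125 ± 5.53 to 216 ± 5.42 CPM and Atp5o, the OSCP that ties the stalk to the head, from 132 ± 5.73 to 223 ± 16.0 CPM. The edgeR adjusted p-values ran from 1.21e-14 for Atp5j to 1.47e-09 for Atp5h. Annotated antisense transcripts overlap 19.6% to 22.5% of the exon bases of Atp5pb, Atp5j and Atp5o. On the same strand, a further GENCODE gene model, also named Atp5o, overlaps 29.0% of those of Atp5o.

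The small membrane subunits, several of which hold ATP synthase dimers together, all rose. Atp5md, known as DAPIT, was at 19.8, 22.1 and 20.6 CPM in myoblasts and at 44.1, 42.1 and 43.8 CPM in myotubes. Its rise of 1.05 (SE 0.08, edgeR adjusted p = 3.01e-12) was the largest of complex V. Atp5mpl, the 6.8 kDa proteolipid, went from 67.9 ± 1.37 to 135.4 ± 1.25 CPM (log2 change 0.997), Atp5k, subunit e, from 37.1 ± 2.21 to 70.7 ± 1.57 CPM (0.93) and Atp5j2, subunit f, from 107 ± 2.11 to 170.5 ± 11.2 CPM (0.68). Atp5l, subunit g, was low, at 1.97 ± 0.398 and 3.93 ± 0.586 CPM, and rose by 0.997 with a standard error of 0.24 (edgeR adjusted p = 5.65e-04). An annotated transcript of Gm30934 lies antisense to 24.4% of the exon bases of Atp5l. By position in the enzyme, the median log2 change was 0.02 over the 2 head genes and 0.16 over the 3 c ring genes. It was 0.66 over the 3 central stalk genes, 0.77 over the 4 peripheral stalk genes and 0.997 over the 5 membrane genes. The c ring median is the value of Atp5g3, with Atp5g2 at -0.09 and Atp5g1 at 0.86. No difference between positions was tested.

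**Figure D3:**
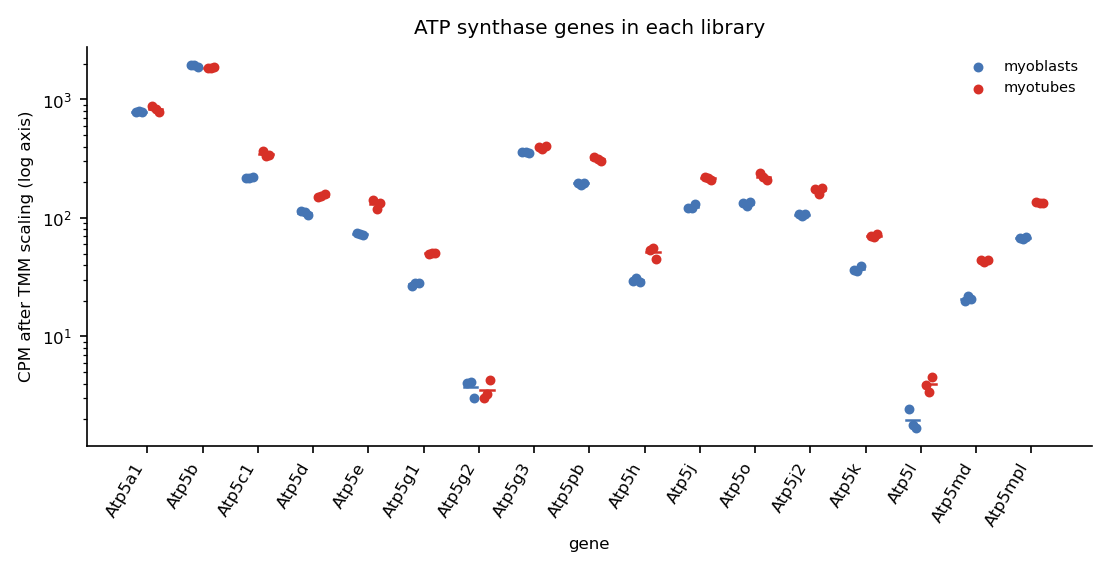
CPM after TMM scaling (log axis) in each library for the 17 ATP synthase genes, from the head on the left through the central stalk, c ring and peripheral stalk to the membrane subunits, with myoblasts in blue, myotubes in red and a line at each group mean. Atp5a1, Atp5b, Atp5g2 and Atp5g3 sit at nearly the same level in both groups, and the other genes are higher in myotubes.

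Several of these genes have left many processed copies in the genome, and a read that matches a gene and a copy may not be counted for the gene. For each gene, the share of 50-base windows of the coding sequence with an exact match in a transcript of another gene was taken from GENCODE vM21. It was 0% for 12 genes, among them Uqcrc1, Uqcrc2, Cyc1, Uqcrq, Atp5a1 and Atp5g3, and 100% for Cycs, Cox7c, Atp5g2 and Atp5l. The 4 genes with all coding windows copied had mean levels of 1.47 to 17.5 CPM per kb of transcript. For the 12 genes with none copied, mean levels were 89.2 to 519.9 CPM per kb. Other highly copied genes were not as low: Atp5md (99.2% copied) was at 89.4, Atp5g1 (99.7%) at 50.2 and Cox6c (52.7%) at 311 CPM per kb. Across all 33 genes, Spearman's rho between that share and the level per kb was -0.53; genes are not independent replicates, and this is a description. Over the whole transcript, beyond the coding sequence, the copied share of windows was lower. It was 28.5% for Cycs, 53.0% for Cox7c, 87.4% for Atp5g2, 68.5% for Atp5l, 11.6% for Atp5g1 and 40.6% for Atp5md. For Atp5g1 it is taken over all 4715 bases of the GENCODE transcript, 3941 of which lie beyond the RefSeq gene. The 11.6% is therefore not the share inside that gene. Since it is not stated here whether reads with several matches were counted, the levels of the copied genes are uncertain.

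Most genes rose on both sides of this divide. Of the 10 genes with at least 50% of their coding windows copied, 8 rose, with a median log2 change of 0.86. Among these, of the 4 with 100% copied only 2 rose, with a median of 0.44. Of the 22 tested genes under 50%, 20 rose, with a median of 0.73, and of the 12 with no exactly copied window 11 rose, with a median of 0.77. With 1 mismatch allowed, 13.2% of the whole-transcript windows of Uqcr10 and 5.3% of those of Cox6b1 were copied. Both are among these 12, and for the rest of the 12 that share was at most 1.0%. Atp5pb lay just under the 50% line, at 49.9%, and Cox6c just above it, at 52.7%. Copies also held counts of their own: Gm10175, which carries 87.4% of the windows of the Atp5g2 transcript, had 92 counts over the 6 libraries, and Gm16089, a copy of Uqcrb, had 656. Uqcr11, with 1 count in all, had 35.2% of its coding windows copied and 10.9% of the windows of its whole transcript.

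**Figure D4:**
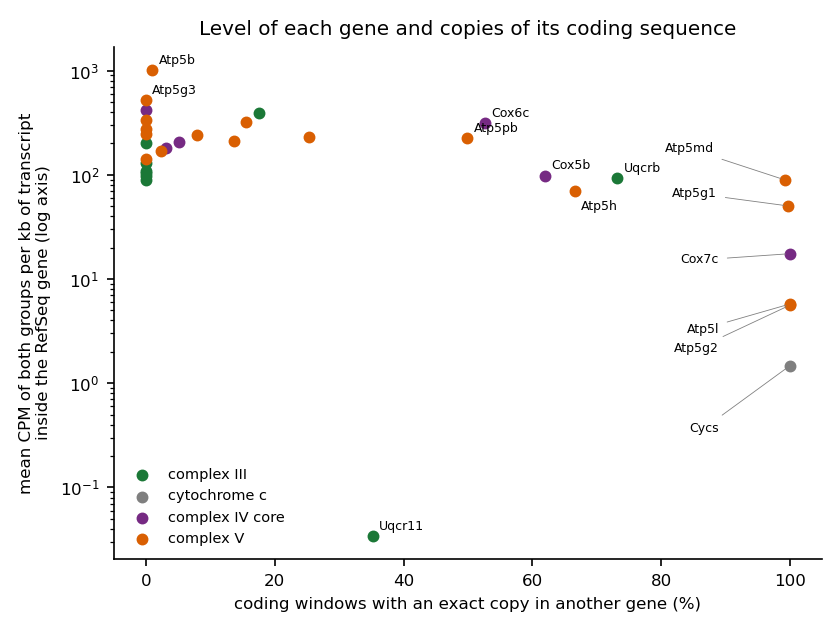
Mean CPM of both groups per kb of transcript inside the RefSeq gene (log axis) against the percentage of 50-base coding windows with an exact copy in another gene, 1 point per gene, coloured by complex. Cycs, Atp5g2, Atp5l and Cox7c sit at the lower right, with 100% of windows copied and at most 17.5 CPM per kb, while Atp5g1 and Atp5md, at 99.7% and 99.2%, lie higher, at 50.2 and 89.4 CPM per kb, and Uqcr11 lies lowest of all.

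Log2 changes were higher for shorter transcripts, both here and among all genes. Spearman's rho between log2 change and transcript length was -0.51 over the 32 tested genes (-0.50 with only the bases inside the RefSeq gene). Over 12581 tested genes with a known length it was -0.13. With coding length in place of transcript length, rho over the 32 genes was -0.63. Among transcripts under 600 bases the median was 0.997 over 10 of the genes described here and 0.34 over all 257 genes, of which 50.2% rose. From 600 to under 1000 bases the medians were 0.72 over 10 genes and 0.27 over all 651, and from 1000 to under 2000 bases 0.68 over 9 genes and 0.14 over all 2630. In each of these bins the median of the subunit genes lay above that of all genes of like length; the part of length in the result was not tested.

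The 120 bases before a RefSeq start are shown for the 6 genes where they lie clear of every annotated part of the gene. In 20 of the 29 promoters matched, this stretch overlaps an exon that GENCODE gives the gene, and in 8 it lies partly or wholly inside the RefSeq gene, before an internal start; those stretches are not shown. Among the 6, Cycs did not pass the test and the others rose. Sequences are in GRCm38, 5′ to 3′ on the strand of the gene, which is the plus strand for Cox7b and the minus strand for the rest. The capitals mark matches, on either strand, to the motifs named after the sequences.
Atp5c1 (chr2:10080511-10080630): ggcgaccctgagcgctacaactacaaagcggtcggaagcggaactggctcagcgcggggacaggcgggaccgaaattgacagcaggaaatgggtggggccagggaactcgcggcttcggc
Atp5l (chr9:44920743-44920862): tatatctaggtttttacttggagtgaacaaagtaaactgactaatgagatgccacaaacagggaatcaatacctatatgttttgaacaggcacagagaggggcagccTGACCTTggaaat
Atp5md (chr19:47090648-47090767): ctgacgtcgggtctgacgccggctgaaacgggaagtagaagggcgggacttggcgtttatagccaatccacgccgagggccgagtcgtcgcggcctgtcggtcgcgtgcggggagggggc
Cox7b (chrX:106015580-106015699): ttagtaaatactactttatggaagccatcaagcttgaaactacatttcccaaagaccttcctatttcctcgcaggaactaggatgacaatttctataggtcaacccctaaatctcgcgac
Cycs (chr6:50566570-50566689): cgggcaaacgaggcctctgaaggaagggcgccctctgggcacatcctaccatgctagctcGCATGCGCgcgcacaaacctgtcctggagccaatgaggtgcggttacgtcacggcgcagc
Uqcr10 (chr11:4704345-4704464): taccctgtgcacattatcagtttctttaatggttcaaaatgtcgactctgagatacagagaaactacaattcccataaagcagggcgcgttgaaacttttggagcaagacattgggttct

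Promoters, taken as 250 bases before to 50 after a RefSeq start, were matched for 26 of the 33 genes (29 promoters). They were searched on both strands for GCGCATGC (the core of the NRF1 motif), CCGGAAGT (ETS factors such as GABP), AAGGTCA (the nuclear receptor core bound by ERR) and AAGATGG (YY1), letters typical of promoters of respiratory genes. GCGCATGC was found in 6 of the 29 promoters (20.7%), those of Atp5g2, Atp5k, Atp5l, Cycs, Uqcr11 and Uqcrc1, against 5.15% of the promoters of tested genes and 2.71% of all. In Atp5g2, Atp5k and Uqcrc1, matches on both strands overlap each other. Of the 6 genes with this motif, Atp5k and Atp5l rose, Atp5g2, Cycs and Uqcrc1 did not pass the test and Uqcr11 was not tested. AAGGTCA was found in 4 (13.8%), those of Atp5e, Atp5g3, Atp5k and Atp5l, against 2.99% of the promoters of tested genes and 4.72% of all.

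CCGGAAGT was found in 3 of the 29 (10.3%), those of Atp5h, Uqcr11 and Uqcrh, against 7.95% of the promoters of tested genes and 3.89% of all. AAGATGG was found in 4 (13.8%), those of Atp5j, Atp5j2, Atp5pb and Cox7c, against 6.90% and 6.34%. Every tested gene with one of the last 3 motifs rose, as did 28 of the 32 tested genes in all. In Atp5pb and Cox7c the match begins 2 bases before the start. These matches describe letters in the window and are not evidence of binding, and genes without one may hold other forms of the motif.

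The mitochondrially encoded partners could be read for 2 of 6 genes. COX1, the catalytic subunit of complex IV, went from 8445 ± 218 to 18398 ± 110 CPM and rose by 1.12 (SE 0.04, edgeR adjusted p = 9.70e-20). CYTB, the mitochondrially encoded subunit of complex III, went from 3997 ± 113 to 7131 ± 355 CPM and rose by 0.84 (SE 0.04, edgeR adjusted p = 4.54e-16). COX2, COX3, ATP6 and ATP8 had 0 to 3 counts per library and were not tested. Of their windows, 100% of COX2, 99.9% of COX3 and 99.5% of ATP6 have copies in annotated nuclear pseudogenes, but none of ATP8 or CYTB do. Of the COX1 windows 51.1% are copied in the same way, so the level of COX1 is uncertain too.

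All 6 assembly factors of complex III rose, with a median log2 change of 0.75. Uqcc1, which helps the synthesis of cytochrome b, went from 36.3 ± 2.28 to 132.9 ± 3.13 CPM (1.87). Lyrm7, a chaperone of the iron-sulfur protein, was highest in change (1.94) but low, at 0.982 and 3.75 CPM. Bcs1l, which inserts that protein, rose by 0.24 (edgeR adjusted p = 0.0390) and was not called when any library but the third of the myotubes was left out, nor with total counts, with no filter (adjusted p = 0.107) or by DESeq2 (adjusted p = 0.0934). Of 5 ATP synthase assembly genes tested, Tmem242 (1.04) and Tmem70 (0.53) rose and Atpaf2, which chaperones the alpha subunit, fell by 0.19 (edgeR adjusted p = 0.0298), and the median over the 5 was 0.25. Atpaf1, which chaperones beta, had a log2 change of 0.19 and Fmc1 of 0.25, and neither passed. The Atpaf2 call was lost by DESeq2 (adjusted p = 0.123) and without the second myoblast, first myotube or second myotube library.

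Of 20 tested complex IV assembly genes, 16 rose and 3 fell, with a median of 0.67; Cox14 rose most (1.78) and Coa7 fell most (by 0.50). Hccs, which attaches haem to cytochrome c and c1, rose by 0.50. The testis form of cytochrome c, Cyct, was not tested. Among the complex IV subunits that come in tissue forms, 7 of 8 tested rose, with a median of 0.86. The muscle form Cox6a2 had 0 counts in all myoblast libraries and 210.2 to 233 CPM in myotubes, while Cox6a1, the form of other tissues, fell by 0.16.

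Of the 3 tested genes for ATP export and phosphate import, 2 fell and 1 rose, with a median of -0.40. Slc25a5, an adenine nucleotide carrier, fell by 0.41, from 316 ± 6.14 to 237 ± 10.4 CPM, and Slc25a3, the phosphate carrier, fell by 0.40, from 401 ± 6.27 to 305 ± 1.81 CPM. Of the coding windows, 63.3% of Slc25a5 and 6.0% of Slc25a3 have exact copies in pseudogenes, so the level of Slc25a5 is uncertain. Slc25a4, the carrier form of heart and muscle, rose by 0.12 (edgeR adjusted p = 0.0155), with overlapping groups. With total counts its change was -0.03 and not called, and the call was also lost with no filter and without the first or second myoblast or the first myotube library. Slc25a31 had 0 counts. Atpif1, the inhibitor of the ATP synthase in reverse, went from 103 ± 2.08 to 112 ± 1.54 CPM, a rise of 0.12 (edgeR adjusted p = 0.0204). This call was lost by DESeq2 (adjusted p = 0.0545), with no filter (0.205) and without the first myoblast library, and the change was -0.02 with total counts. The log2 ratio of Atpif1 over Atp5b went from -4.23 ± 0.05 to -4.05 ± 0.01, a difference of 0.18 with no overlap (exact permutation p = 0.1, adjusted 0.2).

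In the MICOS complex, which shapes the cristae where these enzymes sit, 5 of 7 tested genes rose, with a median of 0.48; Micos13 rose most (1.405). All 4 complex II genes rose, with a median of 0.35 and Sdhd highest (0.85); with total counts Sdhc was not called. Of 40 tested genes with complex I symbols (starting Ndufa, Ndufb, Ndufc, Ndufs or Ndufv), 39 rose, with a median of 0.82. They were taken by symbol alone, so not each need encode a subunit of complex I. Ndufa11b, Ndufb4c and Ndufs6b, which rose, are processed pseudogenes in GENCODE. Of the 40, Ndufa4l2 rose most (3.18) at a mean of 1.71 CPM in myotubes. Ndufa8 had a log2 change of -0.02 and did not pass. The lists were described by count and median only, and no difference between them was tested.

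**Figure D5:**
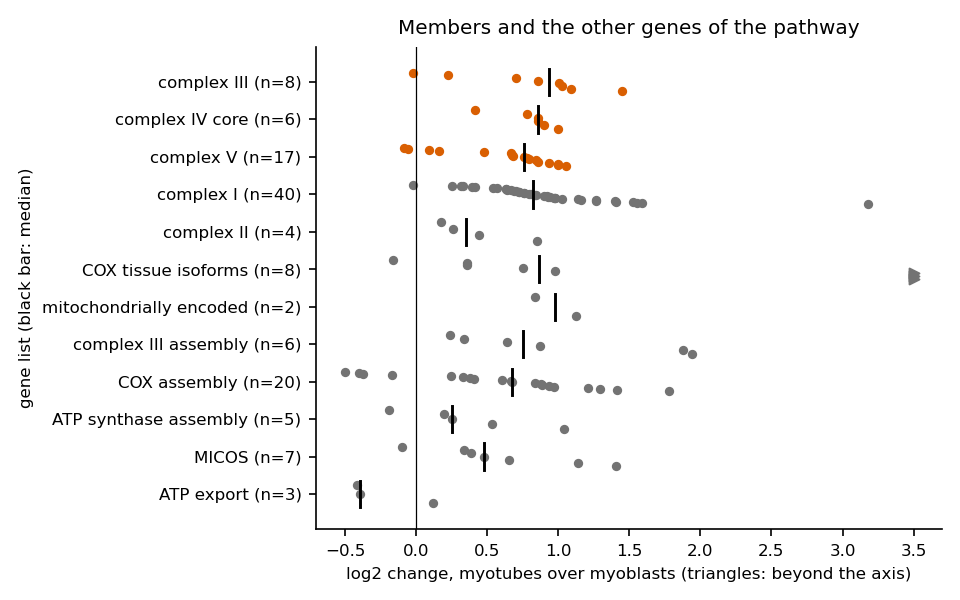
Log2 change in myotubes over myoblasts of each tested gene in complexes III, IV and V (orange) and in the other gene lists (grey), with a black bar at each median and triangles for 3 genes beyond the axis (Cox6a2, Cox8b and Cox7a1). The medians run from 0.35 to 0.98 for the lists plotted except ATP synthase assembly (0.25) and ATP export (-0.40).

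The scaling of the libraries sets the zero of these changes. With total counts in place of TMM, the median of all genes moved by -0.15, 4269 genes were called higher and 5935 lower, and of the genes described here 25 rose and 2 fell. The 2 that fell were Uqcrc1 (by 0.17, edgeR adjusted p = 8.63e-04) and Atp5b (by 0.20, edgeR adjusted p = 1.02e-05). Atp5b was also called lower when no filter on low counts was used (by 0.10, adjusted p = 0.00855). The remaining 25 called genes kept their call and direction under all 14 alternatives.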

How the data were processed

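RNA of 3 myoblast and 3 myotube samples was extracted with TRIzol and made into stranded poly(A) libraries, per the labels' protocols. The deposited table holds raw counts for each gene, with its Entrez ID and symbol. The submitters' processing notes name the tools fastp, STAR and featureCounts and the genome mm10. Tool versions, strand setting and handling of reads with several matches: not given in the sources used here.

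From these counts, edgeR 4.0.16 (R 4.3.3) fitted all genes kept by filterByExpr (minimum count 10, minimum total 15) with TMM scaling and a robust quasi-likelihood test without covariates, Benjamini-Hochberg threshold 0.05. Standard errors were obtained as the size of the log2 change over √F. The common biological coefficient of variation was 3.56%. The test was checked on simulated counts with known changes. Of the table's rows, 1049 had no symbol. No libraries were identical, and same-numbered libraries showed no shared deviation from their group means (correlations -0.0018, 0.0105 and 0.00035). Counting noise could hide a small shared effect, so this cannot show that they are unpaired.

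Ratios were tested by exact permutation over libraries. Alternatives were total counts, DESeq2 1.42.0 size factors and Wald test, limma-voom 3.58.1, no filter, 1 CPM in 3 libraries, a replicate block, leaving out each library, and dropping the mitochondrially encoded genes. After seeing the data, 2 more were added: only genes with under 50% copied coding windows, and only genes with under 10% of exon bases overlapped by another gene. Copies, lengths and overlaps came from GENCODE vM21 (GRCm38). Levels per kilobase use the transcript's bases inside the RefSeq gene. Positions and promoters came from RefSeq (GRCm38.p6), where all 33 genes matched. The members, gene lists and markers were chosen with earlier results of these data known. Full values are given for the catalytic and redox genes, the subunit c genes, the highest and lowest of each complex and all that did not pass; of each list, the largest called rise and fall at 1 CPM or more are named.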

Additional observations from a re-analysis of the deposited data

Results flagged for a closer look

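The 2 pseudogene symbols that the choice of genes leaves out held counts, above what a count of 0 allows. Uqcrh-ps1 had 220 counts over the 6 libraries, at a mean of 3.41 CPM in myoblasts and 4.68 CPM in myotubes (log2 change 0.45, SE 0.20, edgeR adjusted p = 0.0426). Atp5c1-ps had 135 counts, at 2.44 and 2.39 CPM (log2 change -0.06, SE 0.33, edgeR adjusted p = 0.866).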

How the results depend on the processing

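Of the 28 genes that rose, 25 kept their call and direction under all 14 alternatives; the exceptions were Atp5a1, Cyc1 and Atp5g3. Total counts moved the medians of complexes III, IV and V to 0.79, 0.71 and 0.61 and gave 2 genes called lower; no filter gave 0.88, 0.81 and 0.71 and 1 called lower. With only genes under 50% copied coding windows the medians of complexes III and V were 0.86 and 0.68. With only genes under 10% overlap they were 0.86 and 0.68. The genes differ by construction. Leaving out each library moved the complex V median between 0.70 and 0.81. The test for more than 2-fold called 1 gene. The log2 ratio of Cycs over Cyc1 differed by -0.27 to 0.01 (0.0066 without the third myoblast library). With total counts the sign reversed for Cycs (-0.0403) and Atp5a1 (-0.0585). Leaving out each library gave -0.0111 to 0.224 for Cycs (lowest without the second myoblast library), -0.0369 to 0.0016 for Uqcrc1 (highest without the third myotube library) and -0.265 to 0.0119 for Atp5g2 (highest without the first myotube library); the causes were not tested. With the replicate number as a block, 28 genes were called, with medians of 0.93, 0.86 and 0.76, and no call changed. Low counts limit the precision of Cycs, Atp5g2 and Atp5l, whose standard errors were 0.20 to 0.24, and kept Uqcr11 from being tested; whether depth or loss of reads that match copies made them low was not tested.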
